A study of Mus musculus with 4 samples.

Results

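The genes described are 10 genes of slow-twitch (type I) muscle fibres, Tnnc1, Tnni1, Tnnt1, Myl2, Myl3, Myh7, Myh7b, Tpm3, Myoz2 and Mb, in brown adipose tissue (BAT) of Sox4-MKO and control mice. They were picked by symbol because their level differed between the genotypes in these libraries, so all their values are given as a description and without a test. Each of the 10 symbols had 1 row among the 55387 rows of every library. RNA sequencing was performed on interscapular BAT of male C57BL/6 littermates, 2 per genotype (Sox4f/f and Sox4-MKO) and 15 weeks old, all kept at room temperature. Sox4f/f mice, the controls, carry floxed Sox4 alleles and no Cre, and the labels also call them WT. Sox4-MKO mice carry the same floxed alleles together with Myf5-Cre, which is active in precursors of brown adipocytes and also in precursors of skeletal muscle, so the deletion is not limited to fat. Levels are in FPKM, fragments scaled to transcript length and to library size, and can be compared between genes because they are per length.

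Skeletal muscle fibres contract when calcium binds troponin on the thin filament and frees actin for myosin. Slow fibres build this machinery from their own set of troponin, myosin and accessory proteins, are rich in mitochondria and myoglobin, and resist fatigue, whereas fast fibres use parallel genes of the same families. Brown adipocytes descend from Myf5-expressing precursors that also give rise to muscle, but they carry no sarcomeres. Myoglobin is an exception, since brown adipocytes also make it, and Tpm3 is transcribed in most cells through non-muscle isoforms that a value per gene does not separate.

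Sox4, the deleted gene, had 1.98 and 1.06 FPKM in Sox4f/f mice 1 and 2 and 0.981 and 3.06 FPKM in Sox4-MKO mice 1 and 2. The groups overlapped and the log2 difference of 0.20 turned on single libraries, at -0.32 without Sox4-MKO mouse 2, -0.07 without Sox4f/f mouse 2 and 0.71 without Sox4-MKO mouse 1. A lower Sox4 mRNA level under the Sox4-MKO label was therefore not shown, and the groups are called the libraries labelled Sox4-MKO and Sox4f/f below. By Western blot the paper reported much less SOX4 protein in BAT of Sox4-MKO mice, in younger animals than these. The brown fat marker Ucp1 had 1935 and 1814 FPKM in Sox4f/f mice and 733 and 1105 FPKM in Sox4-MKO mice, without overlap, and the general adipocyte gene Adipoq had between 711 and 1123 FPKM. Depth was estimated at between 12100000 and 16200000 fragments per library. The labels name adipocytes as the cell type, but RNA was taken from the whole depot, and genes of the contractile apparatus were above 0 in every library.

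Myh7 and Myh7b each carry a microRNA in an intron, miR-208b and miR-499, and these sequences are shown because they join the myosin genes of the set to Sox6, a repressor of slow fibre genes and a known target of these microRNAs. The cardiac gene Myh6 carries the related miR-208a. In the RefSeq sequences the seed, bases 2 to 8, is in capitals.
mmu-miR-208b-3p (in Myh7, chr14:54975710-54975731, GRCm38.p6, minus strand): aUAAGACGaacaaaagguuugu
mmu-miR-208a-3p (in Myh6, chr14:54949072-54949093, GRCm38.p6, minus strand): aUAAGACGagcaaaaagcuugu
mmu-miR-499-5p (in Myh7b, chr2:155622893-155622913, GRCm38.p6, plus strand): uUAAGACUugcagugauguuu
miR-208b and miR-208a share their seed, and the seed of miR-499 differs from it at 1 position. The rows of the 3 microRNA genes are listed at 0 in all 4 libraries, so only the host genes can be described. Sox6, picked here after its values were seen, had 17.8 and 20.3 FPKM in controls and 20.8 and 14.6 FPKM under the Sox4-MKO label, so the groups overlapped.

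Windows of 250 bases before the annotated start were read from RefSeq for all 10 genes, 16 windows in all because some genes have several starts. The windows of Tnnc1, Myl3 and Myh7 are shown because they hold the MCAT letters CATTCC, the element bound by TEAD factors in muscle genes. Matches on either strand are in capitals.
Tnnc1 (chr14:31208062-31208311, GRCm38.p6, plus strand): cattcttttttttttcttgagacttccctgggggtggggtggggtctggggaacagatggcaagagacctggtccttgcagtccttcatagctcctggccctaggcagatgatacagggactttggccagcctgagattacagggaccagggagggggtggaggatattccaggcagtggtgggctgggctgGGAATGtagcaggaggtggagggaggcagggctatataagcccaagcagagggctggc
Myl3 (chr9:110763428-110763677, GRCm38.p6, plus strand): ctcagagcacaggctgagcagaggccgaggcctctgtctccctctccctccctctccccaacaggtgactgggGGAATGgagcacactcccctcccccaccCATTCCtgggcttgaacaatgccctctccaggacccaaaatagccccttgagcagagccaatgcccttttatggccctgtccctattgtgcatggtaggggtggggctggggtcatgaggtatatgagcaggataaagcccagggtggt
Myh7 (chr14:54994627-54994876, GRCm38.p6, minus strand): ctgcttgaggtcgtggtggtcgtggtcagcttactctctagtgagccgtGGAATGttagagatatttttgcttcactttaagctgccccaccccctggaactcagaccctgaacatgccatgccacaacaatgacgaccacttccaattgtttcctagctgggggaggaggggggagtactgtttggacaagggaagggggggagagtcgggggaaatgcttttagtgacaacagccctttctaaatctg
The first base of the match lies 58 bases before the start in Tnnc1, 177 and 149 bases before it in Myl3, and 201 bases before it in Myh7. Of the 16 windows, 3 held CATTCC, against 12.6% of 32851 windows of all genes. The E-box CANNTG, bound by myogenic factors, was in all 16 windows and in 66.2% of all windows. The letters ACAAT, a core that SOX factors bind, were in 10 of the 16 windows, from 7 of the 10 genes, against 27.7% of all windows. Windows of the same gene are not independent. The MEF2 motif was in 1 window, that of Myoz2, against 2.92%. The CArG motif, searched by name, was in the Myl3 window alone, against 1.47% of all windows, and TATAAA was in 2 windows, of Tnnt1 and Myl2, against 12.4%. These searches, on both strands, describe letters only.

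All 10 genes had a higher level in each library labelled Sox4-MKO than in each Sox4f/f library. Across the tested genes both libraries labelled Sox4-MKO lay above both Sox4f/f libraries at 21.7%, and below both at 29.6%, and since the set was chosen on this contrast nothing is read from the count. The summed level of the 10 genes was 72.9 and 138 FPKM in Sox4f/f mice 1 and 2 and 2460 and 969 FPKM in Sox4-MKO mice 1 and 2. In bulk tissue a change in the number of cells of a type cannot be told apart from a change in RNA per cell. The ratio of the genotype means lay between 3.87 for Tpm3 and 64.0 for Tnnc1, with a median of 31.9. The difference of mean log2(FPKM + 1) had a median of 4.62 and exceeded 4 in 8 of the 10 genes, against 0.163% of 12877 tested genes, of which 1.7% exceeded 2. When all tested genes were ordered by that difference, 7 of the 9 highest were in the set. The share above 4 and these ranks follow in part from choosing the set on this contrast, so nothing is read from them. The smallest differences, 1.497 for Myh7b and 1.77 for Tpm3, belong to the gene with the lowest level and the gene with the highest level in Sox4f/f.

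**Figure D1:**
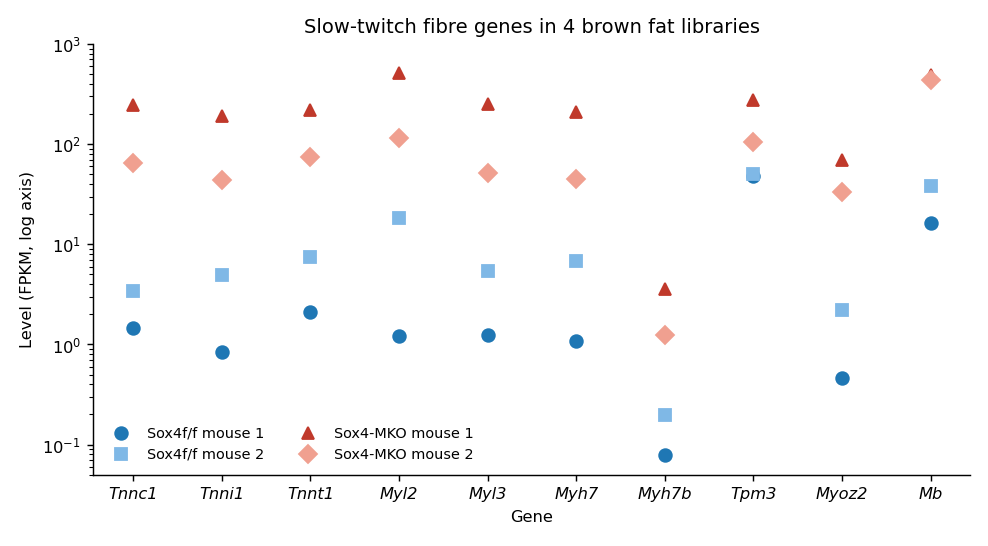
Level of each of the 10 slow-twitch fibre genes (x axis) in FPKM on a log axis (y axis), with 1 point per library and no averaging. The order from low to high is Sox4f/f mouse 1, Sox4f/f mouse 2, Sox4-MKO mouse 2 and Sox4-MKO mouse 1 for every gene, with the Sox4f/f points of Tpm3 (48.0 and 50.8 FPKM) and the Sox4-MKO points of Mb (485 and 437 FPKM) close together.

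The thin filament switch of slow fibres is a troponin complex of 3 subunits. Tnnc1, the calcium-binding subunit shared by slow and cardiac muscle, lies on chr14:31208312-31211729 (plus strand, GRCm38 by symbol in GENCODE M21). Its level was 1.46 and 3.40 FPKM in Sox4f/f mice 1 and 2 and 246 and 65.5 FPKM in Sox4-MKO mice 1 and 2. The lowest library labelled Sox4-MKO was 19.3 times the highest Sox4f/f library, the widest gap in the set.
Tnni1, the slow inhibitory subunit that holds the filament off at rest (chr1:135779434-135810989, plus strand), had 0.844 and 4.93 FPKM among controls versus 191 and 43.9 FPKM. For this gene Sox4f/f mouse 2 was 5.84 times mouse 1, and Sox4-MKO mouse 1 was 4.35 times mouse 2. Tnnt1, the slow subunit that ties the complex to tropomyosin (chr7:4504570-4516382, minus strand), had 2.12 and 7.44 FPKM among controls versus 219 and 73.8 FPKM. The genotype means of Tnnt1 were 4.78 ± 3.76 and 146 ± 103 FPKM (SD, n = 2 mice each). All 3 subunits thus stood in the same order in the 4 libraries, and in each the SD under the Sox4-MKO label was of the same order as the mean.

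The thick filament genes encode the slow myosin motor and the light chains bound to its neck. Myh7, the heavy chain of type I fibres and of the ventricle (chr14:54970684-54994626, minus strand), had 1.09 and 6.84 FPKM among controls versus 208 and 44.4 FPKM under the Sox4-MKO label. Myl2, the slow regulatory light chain (chr5:122100951-122113472, plus strand), had 1.20 and 18.3 FPKM against 509.8 and 114 FPKM. Its Sox4f/f mice differed most of all 10 genes, by a ratio of 15.2, and the lowest gap between genotypes was 6.24 times.
Myl3, the slow essential light chain (chr9:110741861-110769798, plus strand), had 1.25 and 5.44 FPKM among controls versus 251 and 51.2 FPKM. Myh7b, an ancient slow-type heavy chain made in small amounts in muscle and heart (chr2:155611212-155634307, plus strand), had 0.0794 and 0.198 FPKM against 3.59 and 1.24 FPKM. Its ratio of means was 17.4, more than the log2 difference conveys, because a pseudocount of 1 FPKM compresses low genes. With a pseudocount of 0.1 its log2 difference was 3.27 in place of 1.497. Myh7 and Myh6 are near-identical copies that can share fragments, and Myh6 was listed at 0 and 0 FPKM among controls and at 0.659 and 0.0314 FPKM under the Sox4-MKO label.

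Of the remaining members, Myoz2 encodes calsarcin-1, which tethers calcineurin to the Z-disc of slow and cardiac fibres (chr3:123006206-123035015, minus strand). It had 0.467 and 2.20 FPKM among controls versus 69.5 and 33.2 FPKM. Sox4-MKO mice 1 and 2 were nearer to each other here, at a ratio of 2.09, than for any other member except Mb.
Tpm3 encodes the slow tropomyosin of the thin filament as well as non-muscle forms (chr3:90072649-90100902, plus strand). It started from 48.0 and 50.8 FPKM in Sox4f/f, the smallest ratio between these mice in the set (1.06). Under the Sox4-MKO label it stood at 277 and 105 FPKM. Its lowest library labelled Sox4-MKO was 2.06 times the highest Sox4f/f library.
Mb, the oxygen-binding protein of oxidative fibres (chr15:77015487-77050670, minus strand), had 16.4 and 38.0 FPKM among controls versus 485 and 437 FPKM. Mb was the only member at about the same level in both libraries labelled Sox4-MKO, with a ratio of 1.11 between them, and its genotype means were 27.2 ± 15.3 and 461 ± 34.1 FPKM (SD, n = 2 each). Mb made up 45.0% of the summed level of the set in Sox4-MKO mouse 2 and 19.7% in mouse 1, and Tpm3 made up 65.8% in Sox4f/f mouse 1.

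Low levels in Sox4f/f rest on few fragments. For the 8 genes other than Mb and Tpm3, an estimated 7 to 91 fragments lay behind each value in Sox4f/f mouse 1 and 15 to 516 in mouse 2, against 124 to 16365 in the libraries labelled Sox4-MKO. The 0.844 FPKM of Tnni1 in Sox4f/f mouse 1, from about 13 fragments, had an exact Poisson 95% interval of 0.448 to 1.44 FPKM, which lies below the value of mouse 2. For Tnnc1 the intervals of the 2 Sox4f/f mice, 0.790 to 2.42 and 2.32 to 4.91 FPKM, met. These intervals cover counting error only. Several members overlap a gene on the opposite strand, among them Tnnc1 with Nisch, Myl3 with Pth1r, Myh7 with Mhrt and Myh7b with Trpc4ap, and whether fragments were counted by strand is not given in the sources used here.

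Within each genotype the mice also stood apart. Sox4f/f mouse 2 was above mouse 1 for all 10 genes, with a median ratio of 3.93, and Sox4-MKO mouse 1 was above mouse 2 for all 10, with a median ratio of 3.36. For the 15 genes of a fast fibre list the same ratios had medians of 3.43 and 5.24, and 4 of the 15 were more than 10 times higher in Sox4-MKO mouse 1 than in mouse 2. Between the 2 Sox4-MKO mice the slow genes thus held a narrower range, from 1.11 to 4.91, than the fast genes, from 1.34 to 22.4. Between the 2 Sox4f/f mice the order was the reverse. There the slow genes ranged more widely, from 1.06 to 15.2, and the fast genes reached 4.61 at most.

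**Figure D2:**
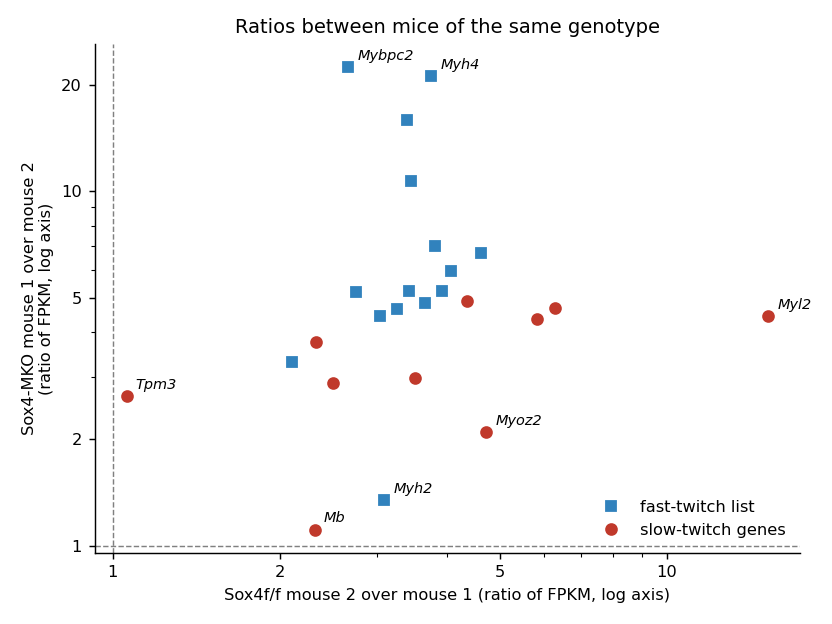
Ratio of FPKM between the 2 Sox4f/f mice (x axis) and between the 2 Sox4-MKO mice (y axis), both on log axes, with 1 point per gene for the 10 slow-twitch genes (circles) and the 15 fast-twitch genes (squares). All points lie above 1 on both axes, Mb (1.11) and the fast gene Myh2 (1.34) are lowest on the y axis, and Mybpc2 (22.4) and Myh4 are highest.

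Slow and fast fibres use paired genes, so the slow share within each pair was compared in the same library, which removes library scaling. The share is the slow gene divided by the slow and fast genes together, in percent of FPKM. Because each share contains a member, it is given without a test. For 6 of the 7 pairs both libraries labelled Sox4-MKO had a larger slow share than both Sox4f/f libraries. Single tested genes lay in this order at 21.7%. The slow genes were chosen for their difference on this contrast, so a larger share was partly built in and nothing is read from the count.
Tnnc1 made up 5.37% and 3.70% of Tnnc1 and Tnnc2 in Sox4f/f, and 13.7% and 18.2% in the libraries labelled Sox4-MKO. Tnni1 against Tnni2 stood at 3.43% and 5.36% in Sox4f/f, and at 11.5% and 12.6%. For Tnnt1 against Tnnt3 the share was 6.54% and 5.87% in Sox4f/f, and 10.05% and 16.4%. In the 3 troponin pairs the slow share was thus small in Sox4f/f and larger under the Sox4-MKO label, with the fast partner the more abundant in every library.
Myl3 against Myl1 held 1.84% and 3.74% in Sox4f/f, and 13.4% and 9.43%, the only non-overlapping pair in which Sox4-MKO mouse 1 had the larger slow share. Myoz2 against Myoz1 had 13.8% and 15.7% in Sox4f/f, and 27.1% and 51.4%, so the Z-disc pair came nearest to an even mixture, in Sox4-MKO mouse 2. Myl2 against Mylpf overlapped, with 4.67% and 21.3% in Sox4f/f, and 20.4% and 23.0%. Sox4f/f mouse 2, with the higher Myl2 level of the controls, lay within the range of the other genotype.

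**Figure D3:**
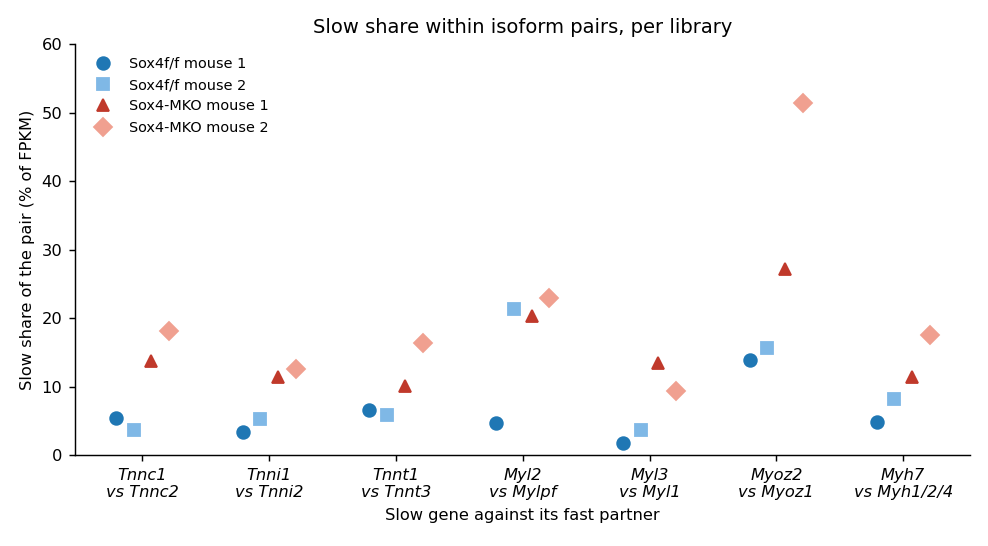
Share of the slow gene within each slow and fast pair (x axis), in percent of the FPKM of the pair (y axis, from 0), with 1 point per library. The points of the libraries labelled Sox4-MKO lie above both Sox4f/f points in 6 of 7 pairs, the exception being Myl2, where Sox4f/f mouse 2 (21.3%) lies between them.

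Adult mouse limb muscle uses 4 heavy chain genes, Myh7 in type I, Myh2 in IIa, Myh1 in IIx and Myh4 in IIb fibres. Their summed level was 22.6 and 82.9 FPKM among controls and 1829 and 254 FPKM under the Sox4-MKO label. Myh7 held 4.83% and 8.25% of that sum in Sox4f/f, and 11.4% and 17.5% in the libraries labelled Sox4-MKO. Its share was therefore larger in both of the latter, and the other 3 genes showed where the 2 mice parted.
In Sox4-MKO mouse 1, Myh4 held 63.7% and Myh2 5.50%, close to Sox4f/f, where Myh4 held 66.7% and 68.1% and Myh2 8.12% and 6.82%. In Sox4-MKO mouse 2, Myh4 held 21.7%, Myh2 29.4% and Myh1 31.4%. The oxidative IIa gene Myh2 was thus at nearly the same level in both mice, 100.5 and 74.7 FPKM, while the IIb gene Myh4 stood at 1165 and 55.2 FPKM, the latter below the 56.5 FPKM of Sox4f/f mouse 2. Heavy chain genes are close copies of each other, and how fragments shared between them were split is not given in the sources used here.

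**Figure D4:**
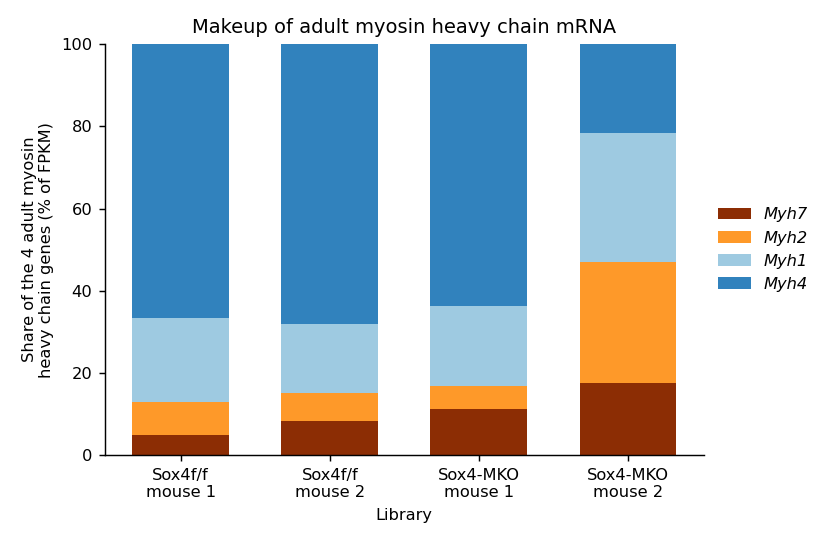
Stacked bars of the share of Myh7, Myh2, Myh1 and Myh4 in their summed FPKM (y axis, percent, from 0 to 100) in each library (x axis). Myh7 grows from 4.83% in Sox4f/f mouse 1 to 17.5% in Sox4-MKO mouse 2, the only library in which Myh4 (21.7%) is not the largest part.

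The other genes of the contractile program were followed with separate lists, and for these limma was used on log2(FPKM + 1). A gene is called here when its unadjusted p is under 0.05, the threshold of the methods of the study, at which 7.95% of 12877 tested genes were higher and 8.28% lower under the Sox4-MKO label. After Benjamini-Hochberg adjustment limma called 0 genes in either direction, against 1024 higher and 1066 lower genes before it, and the smallest adjusted p was 0.191. The lists were written with earlier results of these libraries known, so their counts are a description.
Of 15 fast fibre genes, 12 were called higher and none lower, with a median log2 difference of 3.72, against -0.05 over all tested genes. Myoz3, among the 12, passed the filter only through its mean under the Sox4-MKO label, which set its direction. Mylpf, the fast regulatory light chain, had 24.6 and 67.6 FPKM among controls versus 1994 and 383 FPKM (log2 difference 4.39, standard error 0.92, adjusted p = 0.210). Tnnt3, the fast troponin T, had 30.3 and 119 FPKM against 1961 and 375 FPKM (3.81, standard error 1.02, adjusted p = 0.229). Both were above their slow partners Myl2 and Tnnt1 in all 4 libraries. The 3 that were not called, Myh4, Actn3 and Mybpc2, were those with the largest ratios between the 2 Sox4-MKO mice.
The other fast partners, Tnnc2, Tnni2, Myl1, Myoz1, Myh1 and Myh2, were called with log2 differences from 3.19 (Myl1) to 4.34 (Myh2). Without Sox4f/f mouse 1 there were 2 called fast genes, and Mylpf (3.67) and Tnnt3 (2.84) were not among them. Without Sox4-MKO mouse 1 there were 6, and Tnnt3 (2.62) was not among them, while the list median was 2.36 without that mouse and 4.999 without Sox4-MKO mouse 2. Tnnc2, Tnni2 and Myoz1 were likewise not called without either of these libraries, and Myl1 was not called without Sox4f/f mouse 1 (2.66).
Of 19 sarcomere genes listed as shared between fibre types, 17 were called higher, with a median of 3.55, or 2.75 without Sox4f/f mouse 1. The list also holds Mybpc1, the slow form of myosin-binding protein C, and Actc1, cardiac actin. Acta1, skeletal actin, was the most abundant of the 19 at 59.9 and 226 FPKM among controls versus 4512 and 898 FPKM (log2 difference 4.10, standard error 0.99, adjusted p = 0.216). Tpm1, Tpm2 and Ckm, the muscle creatine kinase, were also called, with differences of 2.35, 3.60 and 3.62. Without Sox4f/f mouse 1 none of these 4 was called, with differences of 3.15 for Acta1, 1.88 for Tpm1, 2.70 for Tpm2 and 2.57 for Ckm. Without Sox4-MKO mouse 1 Acta1 alone of the 4 was called, and Tpm1 was not called without Sox4f/f mouse 2 either (2.82).

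**Figure D5:**
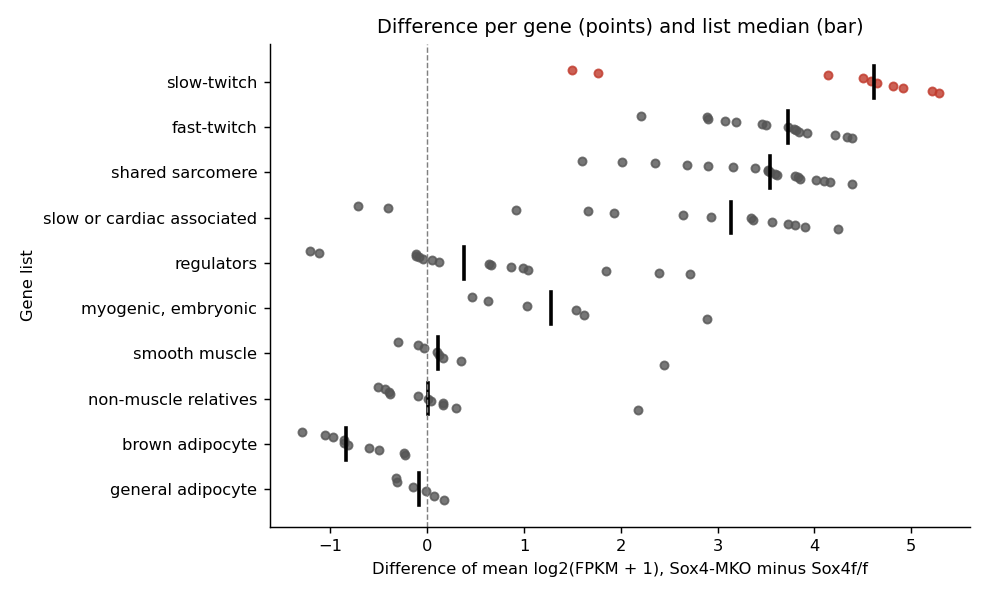
Difference of mean log2(FPKM + 1) between the libraries labelled Sox4-MKO and Sox4f/f (x axis) for the tested genes of each list (y axis), with 1 point per gene and a bar at the list median. The slow-twitch median is 4.62, those of the fast-twitch and shared sarcomere lists are 3.72 and 3.55, and that of the brown adipocyte list is -0.84. The dashed line marks no difference.

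A list of 14 genes that slow or cardiac muscle expresses strongly was mixed. Of these, 11 were called higher and 1 lower, with a median of 3.14. Sln, Lmod2 and Lmod3, among the 11, passed the filter only through their mean under the Sox4-MKO label, which set their direction. Sln, sarcolipin, an inhibitor of the calcium pump, was picked here after its values were seen and was listed at 0 and 0.219 FPKM among controls versus 13.7 and 10.6 FPKM. Hspb6, a small heat shock protein of oxidative muscle, had 10.6 and 23.2 FPKM among controls versus 324 and 90.2 FPKM (log2 difference 3.36, standard error 0.71, adjusted p = 0.210). Cryab and Fhl1 were called with differences of 2.65 and 1.93. Without Sox4f/f mouse 1 these were 1.93 and 1.28 and Hspb6 2.83, none of them called, and without Sox4-MKO mouse 1 Cryab (2.03) and Fhl1 (1.33) were not called. The list then had 6 genes called higher without Sox4f/f mouse 1.
Fabp3, the heart-type fatty acid binding protein that brown fat also makes in large amounts, was the gene called lower. It had 772 and 852 FPKM among controls versus 515 and 474 FPKM (log2 difference -0.71, standard error 0.12, adjusted p = 0.196). Atp2a2, the slow and cardiac calcium pump present in most cells, had 69.9 and 72.7 FPKM against 195 and 94.4 FPKM and was not called.

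Regulators known to act on slow fibre genes differed less. Of 17 listed regulators 16 were tested, of which 5 were called higher and 2 lower, with a median of 0.38. Vgll2, Six4, Nfatc2 and Eya1 passed the filter only through their mean under the Sox4-MKO label, which set their direction. Vgll2 and Six4 are among the 5 called higher. Ppargc1a and Ppargc1b, coactivators that drive oxidative genes in both muscle and brown fat, were those called lower. Ppargc1b had 36.0 and 36.3 FPKM among controls versus 14.7 and 17.6 FPKM, and Ppargc1a had 48.2 and 22.4 FPKM against 13.2 and 14.2 FPKM. Ppargc1a was not called without Sox4-MKO mouse 1 (-1.16) or mouse 2 (-1.26). These coactivators were thus lower in the libraries in which the slow fibre genes were higher.
The regulators called higher included Mef2c, Vgll2 and Smyd1, named after their values were seen. Mef2c, a transcription factor of muscle genes, had 5.02 and 6.77 FPKM against 33.3 and 16.6 FPKM. Vgll2, a TEAD cofactor of skeletal muscle, had 0.0891 and 0.408 FPKM against 8.91 and 3.30 FPKM. Mef2a and Mef2d, which many tissues express, overlapped between the genotypes. Without Sox4f/f mouse 1, 2 regulators were called higher, without Sox4f/f mouse 2 there were 3, and without Sox4-MKO mouse 2 there were 8. The median of the list was 0.17 without Sox4-MKO mouse 1 and 0.68 without mouse 2, 0.16 after quantile normalization, and 0.037 for the regulators with an averaged FPKM above 5.

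Myogenic and embryonic muscle genes summed to 2.76 and 4.90 FPKM in Sox4f/f mice and to 26.2 and 22.2 FPKM in Sox4-MKO mice. Of 14 listed genes 6 passed the FPKM filter, and 4 of them, Myod1, Myog, Myf6 and Chrna1, were called higher. These 4 and Ncam1 passed only through their mean under the Sox4-MKO label, which set their direction, so nothing is read from the count. Myf6, the myogenic factor of mature fibres, had 0.0558 and 0.713 FPKM among controls versus 14.1 and 5.55 FPKM. Myog, myogenin, was listed at 0 in both Sox4f/f libraries and at 1.49 and 2.37 FPKM in the others, and Myl4, the embryonic and atrial light chain, stood at 2.16 and 3.20 against 3.56 and 5.93 FPKM and was not called.
Several of the 10 genes are also cardiac. Of 10 genes more particular to heart, Myl7, Nppa, Nppb, Mybpc3 and Nkx2-5 were listed at 0 in all 4 libraries, and the summed level of the list was 2.15 and 5.78 FPKM among controls versus 2.77 and 3.71 FPKM. Most of that sum was Tbx5, a transcription factor of heart and forelimb, with 1.35 and 5.59 FPKM in Sox4f/f mice and 1.17 and 2.36 FPKM in Sox4-MKO mice. The other 9 genes summed to 0.797 and 0.189 FPKM in Sox4f/f mice and to 1.59 and 1.35 FPKM in Sox4-MKO mice, with the troponin Tnnt2 listed at 0 in both Sox4f/f libraries and at 0.512 and 1.08 FPKM in the others. Smooth muscle genes summed to 70.7 and 95.9 FPKM among controls versus 113 and 100.4 FPKM, with 1 of 8 tested genes, Synpo2, called higher. The non-muscle relatives of the contractile genes, such as Myl6 (464 and 540 against 513 and 425 FPKM) and Actb (675 and 874 against 572 and 592 FPKM), had a median difference of 0.01, with Myl6b called higher and Myh9 and Actg1 lower. The medians of the smooth muscle and non-muscle lists, 0.11 and 0.01, changed sign with some libraries left out. Synpo2 was not called without either Sox4f/f mouse, and 1 gene of the non-muscle list was called without either of them.
Skeletal muscle mRNA in general moved with the slow fibre genes. The 19 shared sarcomere genes summed to 216 and 651 FPKM among controls versus 10242 and 2098 FPKM. Genes of the brown adipocyte moved the other way, with 7 of 10 called lower, a median of -0.84 and summed levels of 8567 and 8398 against 4412 and 5037 FPKM. After quantile normalization the median was -0.53. Without Sox4f/f mouse 1 or without Sox4f/f mouse 2, 3 of these were called, with list medians of -0.85 and -0.81. The 6 general adipocyte genes summed to 9145 and 9618 FPKM among controls versus 8284 and 11094 FPKM, which overlapped. Whether the amount of muscle tissue dissected with each depot has a part in the slow fibre levels was not tested.

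The genes outside the set whose pattern was most like it were sought by Euclidean distance from the median centred log2(FPKM + 1) profile of the 10 genes over the 4 libraries, among 12867 tested genes. Mybpc1, the slow form of myosin-binding protein C, was nearest, at a distance of 0.29, with 1.75 and 6.88 FPKM among controls versus 169 and 54.8 FPKM. Ckmt2, the sarcomeric mitochondrial creatine kinase, followed at 0.40, and then the fast genes Mylpf (0.49) and Myh1 (0.50), so the pattern was not particular to slow fibres. Myot and Smpx, of the Z-disc and costamere, were next at 0.63 and 0.65. The last of the 8 named are Stac3 (0.67), an adaptor of muscle excitation-contraction coupling, and H19 (0.68), an imprinted noncoding RNA that adult muscle expresses. Of the set itself, Tnnt1 lay closest to the common profile, at 0.19, whereas Tpm3 (3.06) and Myh7b (3.33) lay far from it.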

How the data were processed

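RNA sequencing of BAT from 2 Sox4f/f and 2 Sox4-MKO mice, 1 library each, was analysed. The authors deposited FPKM per gene symbol for each library, made with Cufflinks 2.1.1 and Cuffdiff on mm10 according to the submitters' processing notes, and the aligner and annotation are not given in the sources used here. The methods describe TRIzol extraction and TruSeq libraries, the labels a column kit and a stranded mRNA kit. Groups and mouse numbers follow the sample titles, and both mice of a genotype are separate animals.

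The members and lists were chosen with earlier results of these data known. A gene entered the test when its mean over the mice of either genotype exceeded 1 FPKM. Where only the Sox4-MKO mean did so, the filter set the direction. In the other muscle lists this holds for Myoz3, Actc1, Mybph, Sln, Lmod2 and Lmod3. Tests were made with limma 3.58.1 (R 4.3.3) on log2(FPKM + 1), genotype as the only term and a trended prior, two-sided. FPKM are not counts, so no count test was made. With 2 mice per genotype an exact permutation test cannot go below p = 0.333. The code was tested with known answers before use.

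Coordinates are those of GRCm38 (GENCODE M21), the same build as mm10. Fragments were estimated from the lowest values of genes having a single annotated transcript, 1500 nt or longer, with the longest coding transcript as length, and are approximate. Named genes are the 10 members, Sox4, Ucp1, the fast partners of 7 slow genes, the 8 nearest profiles and, per list, the 4 genes of highest mean FPKM, of which not all are printed. Any other gene named was picked with its values in view, as were those given for counts of 5 or fewer. Some regulators in such a count are not reported here by name. Alternatives were a common median, quantile normalization, no FPKM limit and a limit of 5, pseudocounts of 0.1 and 0.01, a replicate block, and each library left out. Figures were drawn with matplotlib 3.10.9.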

Additional observations from a re-analysis of the deposited data

How the results depend on the processing

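The 10 slow fibre genes stood above their Sox4f/f level in all 109 alternative values of their differences. The groups did not overlap for any of the 10 after a common median or quantile normalization. Nothing is read from these counts, because the genes were chosen on this contrast and did not overlap in it. Their median difference of 4.62 lay between 4.58 (quantile normalization) and 5.28 (pseudocount 0.01), and between 3.79 and 5.55 with a library left out. The pseudocount moved Myh7b most, from 1.497 to 3.96. When 1 FPKM was added to each gene, the difference in slow share went from 7.65 to 5.56 percentage points for Tnni1, more than the spread between mice, and from 24.5 to 15.7 for Myoz2, within it. After quantile normalization the median of the brown adipocyte list was -0.53 and that of the general adipocyte list was 0.15, against -0.08 as deposited.

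When single libraries were left out, genes called lower were between 380 and 1015 and genes called higher between 433 and 1443, against 1066 and 1024 with all 4. Both minima came without Sox4f/f mouse 1, and without mouse 2 they were 489 and 574. Calls in the fast fibre list lay between 2 and 15, in the shared sarcomere list between 4 and 19, among slow or cardiac associated genes between 8 and 13 and among regulators between 4 and 9. The difference in slow share lay between 9.16 and 13.6 percentage points for Tnnc1, 6.69 and 8.62 for Tnni1, 3.84 and 10.2 for Tnnt1, 0.34 and 17.0 for Myl2, 6.64 and 10.6 for Myl3, 12.4 and 36.7 for Myoz2, and 4.82 and 10.95 for Myh7. Leaving out a library leaves 1 sample in a genotype and fewer degrees of freedom, and that sample is assumed to vary like the others.

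Mouse numbers were not treated as pairs. The deviations of same-numbered libraries had a correlation of -0.012 over 12877 genes, which cannot show whether the mice were paired. With the replicate block 938 genes were called lower and 970 higher, 11 of 15 in the fast list, 18 of 19 in the shared sarcomere list, 13 of 14 among the slow or cardiac associated genes and 6 of 16 regulators. For the 43 named genes with a test, 288 of 296 values under other scaling, filter, pseudocount or block kept direction and call, and 116 of 172 did with a library left out, 33 of the rest losing the call. Values that turned sign were called neither before nor after. Adipoq turned to 0.022 at a common median and 0.21 after quantile normalization, which also turned Myl6 to 0.049 and Plin1 to 0.080. With a library left out, 12 genes turned sign, with ranges of -0.12 to 0.37 for Acta2, -0.34 to 0.32 for Adipoq, -0.046 to 0.40 for Cd36, -0.16 to 0.31 for Fabp4, -0.29 to 0.065 for Mef2a, -0.27 to 0.18 for Mef2d, -0.23 to 0.037 for Myl6, -0.037 to 0.37 for Myl9, -0.32 to 0.24 for Smtn, -0.32 to 0.71 for Sox4, -0.091 to 0.29 for Tagln and -1.29 to 0.20 for Tbx5. The split of calls was 939 lower and 1197 higher at a common median, 986 and 684 with averaged FPKM above 5, and 815 and 1443 without Sox4-MKO mouse 2. Calls in the myogenic list were 7 with no FPKM limit and 1 above 5 FPKM, against 4. Levels of the slow genes in Sox4f/f mouse 1 are limited by depth, at 7 to 91 estimated fragments for 8 of the 10.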

Other observations

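Myl6b, Synpo2 and Actc1, of neighbouring gene families, had higher levels in both libraries labelled Sox4-MKO than in both controls, and are named here after their values were seen. Myl6b, an essential light chain of the family that includes non-muscle Myl6 and that slow muscle also uses, had 3.42 and 4.19 FPKM among controls versus 33.3 and 12.7 FPKM under the Sox4-MKO label (log2 difference 2.17, standard error 0.46, adjusted p = 0.212 by limma). Synpo2, an actin-binding protein listed under smooth muscle that striated muscle expresses as well, had 1.99 and 3.07 FPKM against 33.6 and 9.36 FPKM (2.44, standard error 0.61, adjusted p = 0.222). Actc1, cardiac actin, which developing and regenerating skeletal muscle also uses, had 0.414 and 0.222 FPKM against 65.0 and 2.57 FPKM, the largest ratio between the 2 Sox4-MKO mice in the shared sarcomere list (25.3), and was not called (adjusted p = 0.318).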
